A study of Homo sapiens with 6 samples.

Results

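The SSX genes are a family of closely related genes on the short arm of chromosome X. They belong to the cancer-testis genes, which are read in male germ cells, silent in most other adult tissues and switched on in many tumours. SSX proteins act as transcriptional repressors in the nucleus, where they co-localise with Polycomb complexes. In synovial sarcoma, parts of SSX1, SSX2 or SSX4 are fused to SS18, a subunit of the BAF chromatin remodeller. DNA methylation of their promoters is one of the known ways in which cancer-testis genes are kept silent.

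The members were chosen by gene symbol, as every row of the table annotated SSX with a number and at most 1 further letter, which leaves out SSX2IP. This gave 8 of 21448 rows, and 17709 rows carried a symbol. SSX1, SSX2B, SSX3, SSX5 and SSX7 are the 5 protein-coding members, and SSX6P, SSX8P and SSX9P are the 3 transcribed pseudogenes. The RefSeq gene table lists 8 protein-coding SSX genes, and SSX2, SSX4 and SSX4B had no row under their names. The family was selected on the difference between the vectors, which was known when it was chosen. Its values for that difference are therefore a description, and no p is given for a member.

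The samples are K562 cells, an established human line grown from a blast crisis of chronic myeloid leukaemia and known for its BCR-ABL1 fusion, labelled as bone marrow tissue with the genotype erythroleukemia. A group of 3 arrays came from cells with a control vector and a group of 3 from cells with a miR-543 vector, labelled miR-543 overexpressed. The labels name no other agent, allele, dose or time, and do not say whether the replicates of a vector were separate cultures, so spreads and p-values may be technical. The level of miR-543 itself was not analysed here. Averaged over the 6 arrays, the 13 measured K562 markers all lay above the median of all rows (array medians 5.99 to 6.01), among them GATA1 at 15.66 and HBZ at 15.47 with the control vector (log2 signal). Of 20 germ cell genes outside the X-linked families, 0 lay above the median of all rows and 15 lay under the lower quartile. DDX4 and DAZL, which define germ cells, averaged 3.38 and 3.84 with the control vector. In 9 measured stromal genes the lowest and highest array averages were 4.35 and 4.61 with the control vector. With the miR-543 vector they were 4.71 and 4.81. Of these 9 genes 1 lay above the median of all rows, COL1A2 at 8.92 with the control vector, and 4 lay under the lower quartile. Of 9 measured lymphoid genes 4 lay above the median of all rows, PTPRC, CD3D, CD3G and CD79A. PTPRC, a marker of white blood cells in general, averaged 12.92 with the control vector, CD3D 10.57 and CD79A 6.53. Under the lower quartile lay 3 of the 9, with CD8A at 3.14 and MS4A1 at 3.19. Of 9 epithelial genes 5 lay above the median of all rows, KRT8 and EPCAM among them at 14.97 and 13.66, and 4 lay under the lower quartile, with CDH1 at 3.74 and KRT14 at 2.79.

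The microRNA carried by the vector is shown first, because it is what the labels name as the difference between the groups. Its mature sequence (RefSeq, GRCh38.p14, chr14:101032033-101032054, plus strand, 22 bases) is given with the seed, bases 2 to 8, in capitals.
hsa-miR-543: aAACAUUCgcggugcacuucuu

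The start regions of the SSX genes are shown because these genes moved together. Each window runs from 250 bases before to 50 bases after a RefSeq start (GRCh38.p14), and 4 of the 8 measured members had one. Capitals mark each CG dinucleotide, the site at which DNA can be methylated. The windows lie at chrX:48255142-48255441, plus strand for SSX1, at chrX:48196746-48197045, minus strand for SSX5, at chrX:52751002-52751301, plus strand for SSX2B and at chrX:52654851-52655150, minus strand for SSX7.
SSX1: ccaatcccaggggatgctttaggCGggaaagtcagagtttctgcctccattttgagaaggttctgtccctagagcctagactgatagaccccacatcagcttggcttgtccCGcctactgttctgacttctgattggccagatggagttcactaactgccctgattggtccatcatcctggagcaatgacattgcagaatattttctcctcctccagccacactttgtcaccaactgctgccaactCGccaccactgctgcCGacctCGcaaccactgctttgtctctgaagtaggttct
SSX5: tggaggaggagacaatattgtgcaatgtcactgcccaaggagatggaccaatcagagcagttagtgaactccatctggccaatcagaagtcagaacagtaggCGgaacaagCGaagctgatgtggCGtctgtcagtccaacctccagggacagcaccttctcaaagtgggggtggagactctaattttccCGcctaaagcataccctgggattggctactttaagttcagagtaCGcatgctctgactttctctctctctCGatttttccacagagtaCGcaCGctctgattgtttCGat
SSX2B: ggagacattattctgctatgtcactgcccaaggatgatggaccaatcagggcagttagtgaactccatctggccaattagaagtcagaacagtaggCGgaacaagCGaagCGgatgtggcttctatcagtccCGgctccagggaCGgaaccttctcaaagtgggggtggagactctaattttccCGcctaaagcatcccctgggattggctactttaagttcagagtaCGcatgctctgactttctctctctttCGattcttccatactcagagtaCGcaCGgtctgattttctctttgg
SSX7: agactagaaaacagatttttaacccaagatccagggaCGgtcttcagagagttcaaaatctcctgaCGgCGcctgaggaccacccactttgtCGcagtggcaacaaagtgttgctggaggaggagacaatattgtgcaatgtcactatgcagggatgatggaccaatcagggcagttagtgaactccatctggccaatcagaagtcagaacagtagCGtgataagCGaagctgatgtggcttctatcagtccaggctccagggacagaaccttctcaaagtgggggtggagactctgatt

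These windows held 5 CG sites in SSX1, 9 in SSX5, 10 in SSX2B and 6 in SSX7. The median over 35116 start windows of the same length was 14, with quartiles of 4 and 28. The SSX start regions thus lay between the quartiles, and their GC content lay between 49.3% and 53.7% over all 8 SSX windows. The windows were close copies of each other. SSX5 and SSX2B were 91.9% identical over 295 aligned bases, and SSX5 and SSX7 were 91.4% identical over 187. The SSX1 window matched SSX5 best on the opposite strand, with 88.9% identity over 216 bases. The shared stretch therefore lies in the reverse orientation relative to the listed start of SSX1. The SSX2B window was identical to 1 of the 2 windows listed for SSX2. Probe sequences were not examined here. The SSX2B row may carry signal of both genes, and probes of any member may read its relatives, but neither was tested.

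The motif CCAAT, which binds NF-Y, was sought on both strands and was present in all 4 windows, against 34.6% of all start windows. TTTCCCGC, an E2F motif, stood in 3 of 4 (SSX1, SSX5 and SSX2B), against 1.63% of all windows. The SSX7 window held none. The SP1 motif GGGCGG was in 0 of 4, against 45% of all windows. The same 0 of 4 held for the promoter box with the letters TATAAA (11.5% of all windows), for the E-box, spelled CACGTG (7.26%), and for the ETS motif, spelled CCGGAAG (10.3%). The windows are so alike that they are not independent, and a match says only that the letters are there.

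All 8 SSX rows had lower signals with the miR-543 vector than with the control vector, and in all 8 every miR-543 array lay below every control array. The log2 differences ran from -1.51 in SSX6P to -0.76 in SSX7, with a median of -1.13, or 45.8% of the control level. Over all rows the median difference was 0.013 and the 1st percentile was -0.71, and all 8 members lay below that percentile. Without overlap and lower with miR-543 were 7.5% of all rows. Because the difference was known when the family was chosen, nothing is read from this contrast.

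SSX1 is the member most often fused to SS18 in synovial sarcoma. Its signal (row TC0X00007176.hg.1) was 15.43, 15.04 and 15.18 on the control arrays and 14.03, 14.08 and 13.85 on the miR-543 arrays. Both groups were tight and lay 0.96 apart at their nearest arrays, the widest gap of the family. The mean went from 15.22 ± 0.20 to 13.99 ± 0.12 (SD, n = 3), a log2 difference of -1.23 (SE 0.15), or 42.6% of the control level.

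SSX2B is a near-identical copy of SSX2, a tumour antigen recognised by T cells in melanoma. Its row (TC0X00007298.hg.1) read 15.59, 15.46 and 15.18 with the control vector and 14.64, 14.52 and 14.43 with the miR-543 vector. The lowest control array stood 0.54 above the highest miR-543 array. Means were 15.41 ± 0.21 and 14.53 ± 0.11 (SD, n = 3), a difference of -0.88 (SE 0.15) that leaves 54.3% of the control level.

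SSX5, a coding member, had the smallest spread of the family. Its row (TC0X00011365.hg.1) read 13.75, 13.70 and 13.57 on the control arrays and 12.90, 12.89 and 12.76 on the miR-543 arrays. The difference of -0.82 (SE 0.14) was larger than the spread within either group, with SDs of 0.093 and 0.078 (n = 3), and the level was 56.5% of control.

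SSX3, a coding member, read 10.50, 9.86 and 10.19 with the control vector and 8.91, 9.13 and 8.88 with the miR-543 vector (row TC0X00009606.hg.1). Control replicate 2 was the lowest control and still lay 0.73 above every miR-543 array. The means of 10.18 ± 0.32 and 8.97 ± 0.14 (SD, n = 3) differ by -1.21 (SE 0.18), or 43.2% of control.

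SSX7 stood at the middle of the signals on these arrays, near the median of all rows. Its row (TC0X00011367.hg.1) read 6.85, 6.08 and 6.18 with the control vector and 5.44, 5.89 and 5.49 with the miR-543 vector. Control replicate 1 was high and miR-543 replicate 2 came within 0.19 of the lowest control, the narrowest gap of the family. The difference was -0.76 (SE 0.22).

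The 3 transcribed pseudogenes differed by -1.51, -1.47 and -1.04, with a median of -1.47 against -0.88 for the 5 coding rows. The coding rows ran from -1.23 to -0.76, so the ranges overlap, and the medians were not tested against each other. SSX6P (row TC0X00007169.hg.1) read 11.03, 10.13 and 10.84 with the control vector and 9.32, 9.09 and 9.07 with the miR-543 vector, 35.2% of control. The low array was again control replicate 2, which lay 0.81 above the highest miR-543 array.

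SSX8P (row TC0X00007292.hg.1) read 11.75, 10.84 and 11.59 on the control arrays and 10.06, 10.12 and 9.59 on the miR-543 arrays, a difference of -1.47 (SE 0.24). SSX9P (row TC0X00009603.hg.1) read 11.43, 10.57 and 11.00, then 10.12, 10.09 and 9.66, a difference of -1.04 (SE 0.22). In both rows the control replicates were widely spread, with ranges of 0.91 and 0.86 and control replicate 2 lowest, and the groups did not overlap. Whether these rows read their own RNA or that of the coding members was not tested.

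**Figure D1:**
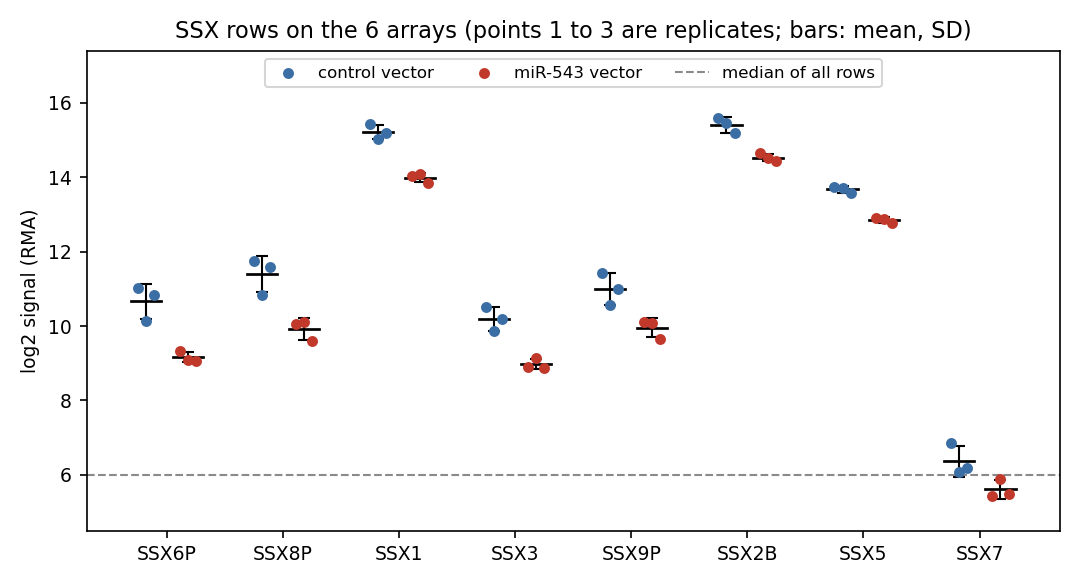
Log2 signal of the 8 SSX rows on each array, ordered by size of difference, with blue points for the control vector and red points for the miR-543 vector. Bars are means with SD (n = 3), and the dashed line is the median of all rows. In each row the 3 red points lie below the 3 blue ones, with SSX7 alone near the dashed line.

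Set in order, the differences were SSX6P, SSX8P, SSX1, SSX3, SSX9P, SSX2B, SSX5 and SSX7 from the most to the least negative. Of the 7 steps between neighbours in this order, 0 exceeded the SD of the array-by-array difference between the 2 rows. The largest step, from SSX8P to SSX1, was 0.24 against an SD of 0.262. The ends of the order were further apart: SSX6P lay lower than SSX7 by 0.74 with an SD of 0.331, a description with no test. Signals of different rows come from different probes, so the rows are not ranked by level.

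The rows also shared their replicate pattern, which the choice of the family did not use as such. Control replicate 1 was the highest control in 8 of 8 SSX rows, against 32% of all rows. MiR-543 replicate 3 was the lowest miR-543 array in 7 of 8, against 35.1% of all rows. Averaged over the family after centring each row, the 3 controls lay at 0.86, 0.28 and 0.54 and the miR-543 arrays at -0.50, -0.45 and -0.71. The spread was larger with the control vector in 8 of 8 rows, against 51.1% of all rows. Closely related probes on the same arrays are not independent, so these 8 counts are not 8 separate observations.

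By limma, with Benjamini-Hochberg adjustment over all 21448 rows, SSX1, SSX2B, SSX3, SSX5, SSX6P and SSX8P were called lower at an adjusted p under 0.05. These were 6 of 8 members, 4 of the 5 coding rows and 2 of the 3 pseudogenes, where 0.438% of all rows were called lower and 0.131% higher. The call with at least a 2-fold difference took in 4 members (SSX1, SSX3, SSX6P and SSX8P), against 0.298% of all rows. SSX9P and SSX7 were not called. SSX9P differed by more than SSX2B and SSX5 but had a larger SE, at 0.22 against 0.15 and 0.14. The count was sensitive to single arrays. Leaving out control replicate 1, control replicate 3 or miR-543 replicate 3 left 1 member called. Leaving out miR-543 replicate 1 or 2 left 2, and leaving out control replicate 2 left 4. SSX1 was called in all of these fits.

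**Figure D2:**
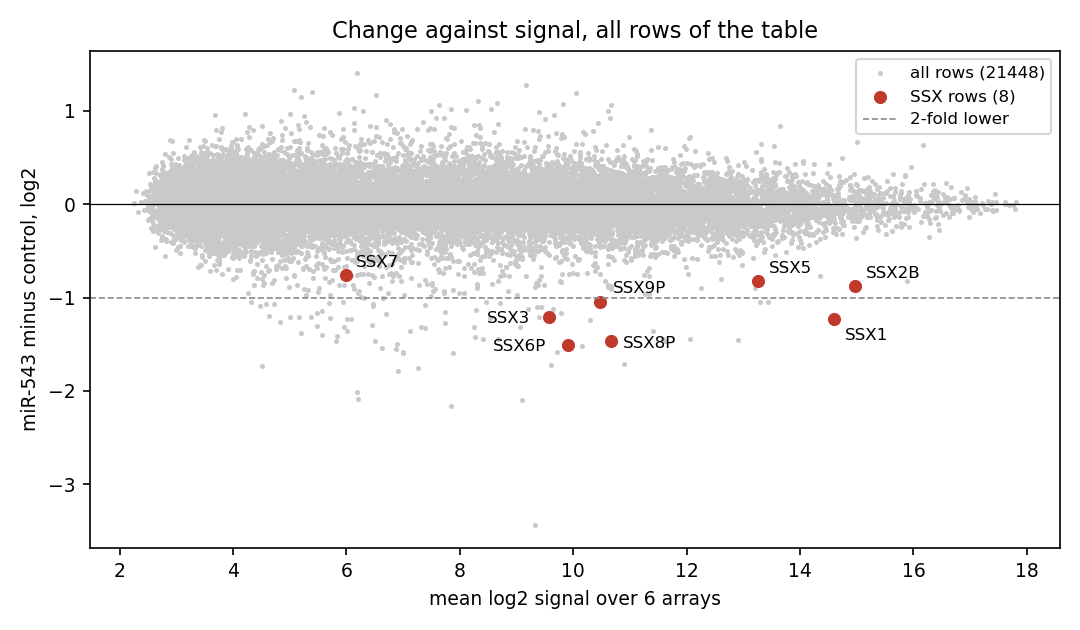
Log2 difference, miR-543 vector minus control vector, against the mean log2 signal over the 6 arrays. Grey points are all 21448 rows and red points the 8 SSX rows, which lie from -1.51 to -0.76, all below the 1st percentile of all rows, -0.71. The dashed line marks a level 2-fold lower.

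The SSX genes stand in 2 runs on chromosome X, with 53 other measured genes between them in RefSeq order, and both runs were lower. The first run holds SSX6P, SSX5, SSX1, SSX9P and SSX3, with a median of -1.21, and the second holds SSX8P, SSX7 and SSX2B, with a median of -0.88. Of the genes next to the runs XAGE1B, itself a cancer-testis gene, was the 1 that was called. SPACA5B, a sperm acrosome gene that lies among the SSX genes of the first run, read 4.81, 5.16 and 4.71 with the control vector and 4.65, 5.19 and 4.86 with the miR-543 vector, which overlap. Its signals lie below the array medians, and signal over background was not tested.

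The 3 nearest measured genes before the first run, ZNF182, SPACA5 and ZNF630, differed by 0.06, 0.07 and 0.27. The 3 after it, SLC38A5, FTSJ1 and EBP, differed by 0.15, 0.02 and 0.31. SLC38A5, an amino acid transporter, and EBP, a sterol isomerase, were well measured, with control means of 12.72 and 13.7. Around the second run MAGED4B, XAGE2, SPANXN5, XAGE5 and XAGE3 differed by 0.18, -0.20, 0.01, -0.21 and 0.43, all with control means of 5 or lower. XAGE1B fell by 1.36 from 12.09 ± 0.20 to 10.73 ± 0.29 (SD, n = 3; limma adjusted p = 0.00968). Of these 13 neighbours 1 was called lower and 0 higher, and the 53 genes between the runs had a median of -0.09 with 1 call, again XAGE1B. Over chromosome X as a whole 21 of 852 rows (2.46%) were called lower, and 6 of these 21 were SSX rows.

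**Figure D3:**
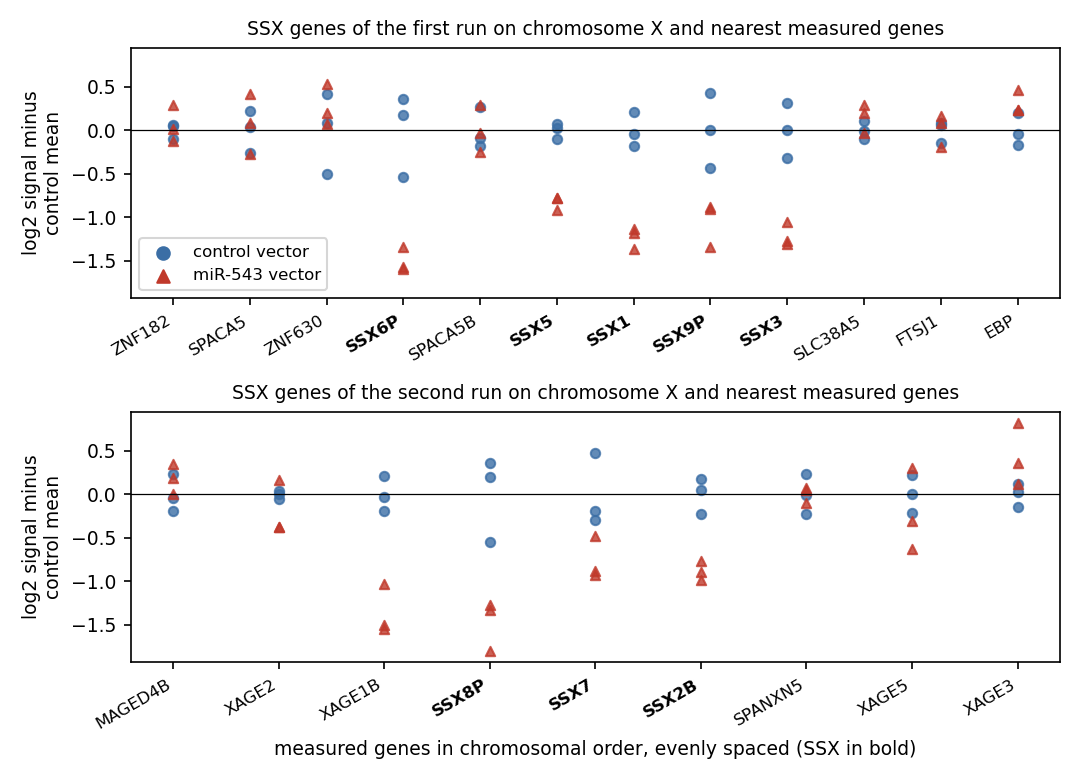
Log2 signal minus the control mean for SSX genes (bold) and their nearest measured neighbours, in chromosomal order with even spacing. Circles are control arrays and triangles miR-543 arrays. The triangles lie below the circles in the 8 SSX genes and XAGE1B. SPACA5B, SLC38A5 and FTSJ1 have overlapping groups, while the triangles lie above the circles in EBP, which differed by 0.31 and was not called.

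Other X-linked cancer-testis families were set beside SSX without a test of the difference between families. The PAGE and XAGE rows had a median of -0.59 over 10 rows, 3 of them called lower. These were PAGE5, PAGE2B and XAGE1B, with differences of -1.45, -1.16 and -1.36 (limma adjusted p = 0.00366, 0.0211 and 0.00968). Averaged over the 6 arrays, 6 of the 10 PAGE and XAGE rows lay above the median of all rows and 2 under the lower quartile. For the 8 SSX rows the counts were 7 and 0. PAGE2, PAGE1 and PAGE4, which also lay above the median, were not called and differed by -1.24, -0.93 and -0.26. The rows below it were XAGE2, XAGE5, PAGE3 and XAGE3, at -0.20, -0.21, -0.23 and 0.43. The 10 MAGEA rows had a median of -0.18, and MAGEA1, a tumour antigen, was the 1 call at -1.12 (limma adjusted p = 0.00795). The 5 GAGE rows had a median of -0.33 and the 8 distinct CT45 rows one of -0.22, with 0 calls in either family. In GAGE the largest differences were -0.48 for GAGE10 and -0.42 for GAGE2A, and in CT45 they were -0.27 for CT45A6 and -0.26 for CT45A7. Signals of GAGE and CT45 were high, with array averages of at least 13.36 and 11.7. The highest SSX difference, -0.76, was taken as a cutoff, so all 8 SSX rows meet it by construction. At or below it lay 5 of the 10 PAGE and XAGE rows, 1 MAGEA row and 0 of GAGE and CT45.

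**Figure D4:**
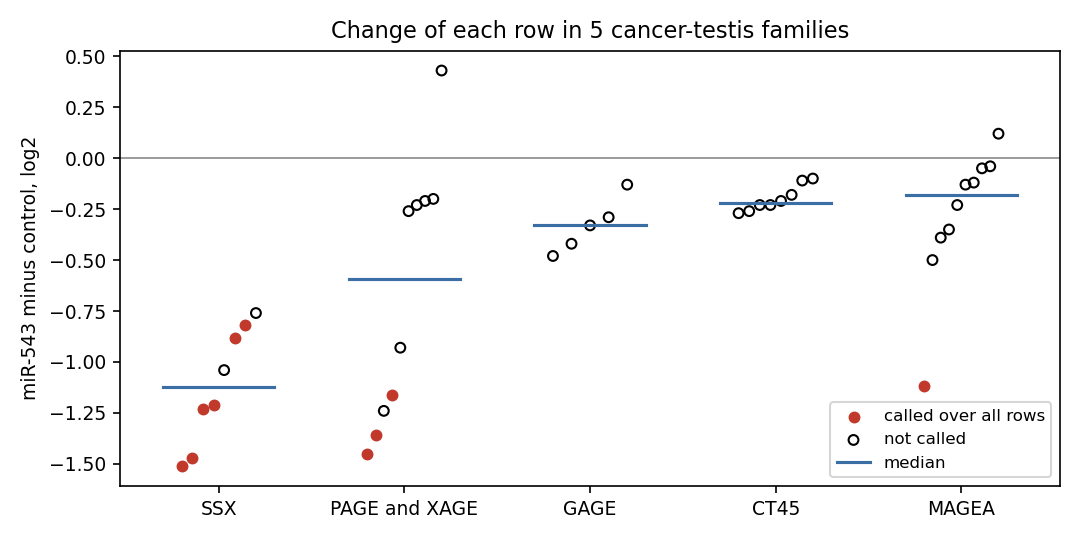
Log2 difference, miR-543 vector minus control vector, of each distinct row in 5 cancer-testis families. Red points were called by limma over all rows, open points were not, and blue lines are medians. SSX has 6 red points and a median of -1.13, PAGE and XAGE 3 and -0.59, and MAGEA 1 and -0.18. Of the 10 PAGE and XAGE rows 6 lay above the median signal of all rows, averaged over the 6 arrays.

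RNA of proteins linked to SSX, directly or through the SS18 fusion, was considered next, from lists drawn from general knowledge. Of 5 partners 0 were called in either direction, with a median of -0.20. SS18, the fusion partner in synovial sarcoma, differed by -0.23 (limma adjusted p = 0.645), and its homolog SS18L1 by -0.35 (0.574). RAB3IP, an exchange factor for RAB proteins, differed by -0.20, SSX2IP, a centrosome protein, by -0.10, and the homeobox factor LHX4 by -0.08. Of 30 BAF subunits, SS18 among them, 0 were called and the median was -0.09, with -0.49 for SMARCE1 and -0.42 for BCL7B. The 14 measured subunits of Polycomb repressive complex 1 had 0 calls and a median of -0.11, with -0.39 for PCGF2 and 0.36 for CBX7.

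A list drawn up around DNA methylation and heterochromatin had a median of 0.00 over 21 measured genes, and 0 were called. Not all of its genes set or remove these marks themselves. TET1, which oxidises 5-methylcytosine, differed by -0.50 (limma adjusted p = 0.247), and LIN28B by -0.43 (0.373). DNMT1, the maintenance methyltransferase, differed by -0.25, and CTCFL, a germline relative of CTCF, by 0.10 from a control mean of 13.79. Methylation was not measured, so these values say nothing of the SSX promoters themselves.

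The marker lists, of K562 itself and of other cell types, had 0 calls. Medians were 0.02 for the 20 germ cell genes (SYCP1 -0.46 and TNP2 -0.42), 0.31 for the 13 K562 markers (KLF1 0.66, TAL1 and BCR 0.41 each), 0.19 for the stromal list (PDGFRB 0.40 and LUM 0.32), -0.03 for the lymphoid list (CD3D 0.64 and PTPRC -0.34) and 0.10 for the epithelial list (CLDN7 0.30 and EPCAM -0.24). Their part in the SSX difference was not tested. In bulk RNA, fewer SSX-expressing cells and less SSX RNA per cell cannot be told apart.

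The named genes outside the family whose pattern over the 6 arrays was most like the SSX mean were OSTCP1, VKORC1L1, VCX3B, CFAP161 and DIS3, with Pearson's r of 0.993, 0.991, 0.990, 0.988 and 0.987. The arrays form 2 groups, so a difference between the vectors is enough to give a high r, and the genes were the top of 17701 rows compared. Their own differences were smaller, at -0.21, -0.50, -0.70, -0.48 and -0.56, and 0 of the 5 were called. VCX3B, an X-linked cancer-testis gene, read 6.28, 5.92 and 6.14 with the control vector and 5.35, 5.54 and 5.34 with the miR-543 vector.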

How the data were processed

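The samples, 3 arrays with each vector, were measured on single-colour arrays, and groups and replicate numbers came from the titles. The authors deposited log2 signals per transcript cluster, to 2 decimals, made with Transcriptome Analysis Console 4.0 and RMA per the submitters' processing notes, with the RMA variant, annotation release and build not given in the sources used here. Rows were not sorted into detected and undetected. The number of arrays limits the precision. The table had 0 columns of other samples. Symbols came from the platform annotation, and all 8 SSX symbols were found through their gene identifiers in the RefSeq table of GRCh38.p14, used for names and gene order.

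Differences are miR-543 minus control means. Calls are from limma 3.58.1 (R 4.3.3, lmFit and eBayes) on all 21448 rows with Benjamini-Hochberg adjustment. The same fit was also run on simulated arrays with independent errors. The SSX rows share their replicate pattern, so that run says nothing of the SSX calls. SE is the moderated standard error. SSX rows identical to another row numbered 0. Start windows were aligned locally with Biopython 1.88 (match 1, mismatch -1, gap opening -3, extension -1) on both strands. The alternatives were a replicate block, 2 rescalings, a trend and robust fit, a filter on low signals and leaving out each array.

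The family, the 9 gene lists and the 4 comparison families were chosen with earlier results of these data known. Named outside the family are called list members, otherwise the 2 largest differences per list, the 3 nearest genes on either side of each run, and the 5 rows most like the family mean. DNMT1 and CTCFL, the remaining SSX partners, DDX4, DAZL, GATA1, HBZ, KRT8, CDH1 and KRT14 were added after their values were seen. So were CD3G, CD79A, CD8A and MS4A1 of the lymphoid list. COL1A2, PAGE1, PAGE2, PAGE3 and PAGE4 were likewise named outside the rule, as was SPACA5B, which lies inside the first run.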

Additional observations from a re-analysis of the deposited data

How the results depend on the processing

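The median SSX difference of -1.13 was -0.94 to -1.29 when single arrays were left out, -1.12 to -1.21 under the other settings that change the values or rows, and -1.13 with the replicate block. All 79 recomputed differences of single members stayed below 0 and within 1 SD between replicates of their main value. For most of them this was fixed in advance and says nothing of stability. The replicate block and the filter leave a member's difference as it was. With groups of this size that do not overlap, leaving out 1 array can neither change its sign nor move it by 1 SD. Only the rescalings could have given another outcome. All 8 rows kept their groups apart under both rescalings. Omitting an array cannot make separate groups overlap, so the 8 of 8 found there says nothing of stability, and the filter removed SSX7.

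The count of 6 called members was 6 under both rescalings and 7 with the trend and robust fit or the filter, which added SSX9P. Lower calls over all rows also rose under these, from 94 of 21448 to 172 of 21448 with the trend and robust fit and 117 of 10724 after the filter. It ran from 1 to 4 without single arrays, each a fit on fewer samples in which fewer of all rows were called lower too (32 to 47 against 94). With the replicate block it was 2 (SSX1 and SSX6P), and 59 of all rows were called lower. The deviations of same-numbered arrays correlated at 0.0948, -0.0527 and 0.0181 across rows, so the numbers are not shown to pair the samples. SSX1 was called under all 11 alternatives and SSX7 under 0 of the 10 in which it was fitted. Signal over background was not tested, and SSX7 is the member that lies near the middle of the signals.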
